A study of Rattus norvegicus with 13 samples.

Results

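Most rows of the deposited expression table carry a transcript-level Ensembl identifier (ENSRNOT), and 250 of its 14716 rows carry a gene-level identifier (ENSRNOG) in its place. The rule that picks these 250 rows uses the identifier and no measured value. The table holds normalized counts from total RNA-Seq of the ventricular zone (VZ), the epithelium lining the brain ventricles, captured by laser from male Long Evans rat pups on postnatal day 2 (PN2). The 7 control pups came from dams given deionized water as the vehicle, and the 6 PTU exposed pups from dams given 3 ppm (0.0003%) propylthiouracil, an inhibitor of thyroid hormone synthesis, in drinking water from gestational day 6. Each pup came from a separate litter, so the spread between pups is a spread between animals. The tissue is a bulk sample of a narrow strip recognised by its pseudostratified appearance, its RNA was partly degraded according to the methods, and fewer cells of a type cannot be told apart from less RNA per cell.

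The names that the gene-level rows do carry are largely those of structured noncoding RNAs. The signal recognition particle (SRP) RNA is the scaffold of the complex that brings ribosomes making secreted and membrane proteins to the endoplasmic reticulum, and RNase P and RNase MRP are RNA enzymes that trim precursors of transfer and ribosomal RNA. Small nucleolar RNAs (snoRNAs) guide modification and cleavage of ribosomal RNA, small Cajal body RNAs (scaRNAs) guide modification of the spliceosomal small nuclear RNAs (snRNAs), and most of these RNAs have no poly(A) tail, so they are read by total RNA libraries.

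The number of counted reads, worked out from the smallest spacing of low values in a pup's column, was an estimated 22295700 to 43513100 in control pups and 28415300 to 44388400 in PTU exposed pups. All 8 VZ radial glia markers were measured, with a summed level of 73699 to 102847 in control and 61169 to 80981 in PTU exposed pups. All 6 choroid plexus markers were also measured, and *Ttr*, the transthyretin gene, ranged from 43986 to 125906 in control and from 19912.5 to 84875 in PTU exposed pups. PTU exposed pups 1 and 3 stood apart from the rest by low values and PTU exposed pup 2 by high values in several classes described here. Differences in the summed level of a class are therefore also given without pups 1 and 3 together, an alternative chosen after seeing the data.

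Of the 250 gene-level rows, 192 (76.8%) had no gene name, against 1296 (8.96%) of the 14466 transcript-level rows. By name, the other 58 rows were 19 SRP rows, 3 RNase P and MRP rows, 3 snRNA rows, 3 scaRNA rows, 9 snoRNA rows, 3 rows of 5_8S_rRNA, 2 rows named after a mitochondrial genome sequence, 12 rows named after a genomic clone and 4 rows with another name. No row was named as 7SK, Y RNA or vault RNA. The median normalized count over the 13 pups was 162 for gene-level rows and 492 for transcript-level rows, so the typical gene-level row was the lower of the pair. At the other end, 36 gene-level rows averaged at least 1000 and 14 at least 10000, and 10 averaged under 10 and were left out of the tests, which leaves 240. Normalized counts are not divided by length, so they rank rows by reads and not by molecules.

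The 3 highest gene-level rows had no name and lay above every transcript-level row, whose highest mean was 190210. The row ENSRNOG00000068405 averaged 5900660 normalized counts, ENSRNOG00000064743 averaged 5757360 and ENSRNOG00000065988 averaged 4308650. With them, the gene-level rows took up a large part of every library. Their share of all normalized counts was 35.0, 37.3, 54.2, 61.5, 53.2, 54.0 and 49.8% in control pups 1 to 7, and 26.7, 40.0, 25.6, 59.0, 56.1 and 36.9% in PTU exposed pups 1 to 6. Control pups 1 and 2 lay beside PTU exposed pup 6, PTU exposed pups 4 and 5 lay above 6 of the 7 control pups, and PTU exposed pups 1 and 3 were the lowest of the 13. The mean share of 49.3% ± 9.65 in control and 40.7% ± 14.2 in PTU exposed pups (SD, n = 7 and 6) gave a difference of -8.57 percentage points, which was within the spread between pups (exact permutation test over all regroupings, two-sided, p = 0.216). It was -5.77 points without PTU exposed pup 1 (p = 0.409), -5.55 without PTU exposed pup 3 (p = 0.423) and -1.30 without both (p = 0.873), against -12.2 without PTU exposed pup 4 (p = 0.0909), all by the exact permutation test. The rows without a name, which include the 3 highest, had a difference of -8.17 points with all pups and of -1.07 without PTU exposed pups 1 and 3 (exact permutation p = 0.903). Their log2 difference in summed counts was -0.52 with all pups and -0.072 without that pair (exact permutation p = 0.218 and 0.879).

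**Figure D1:**
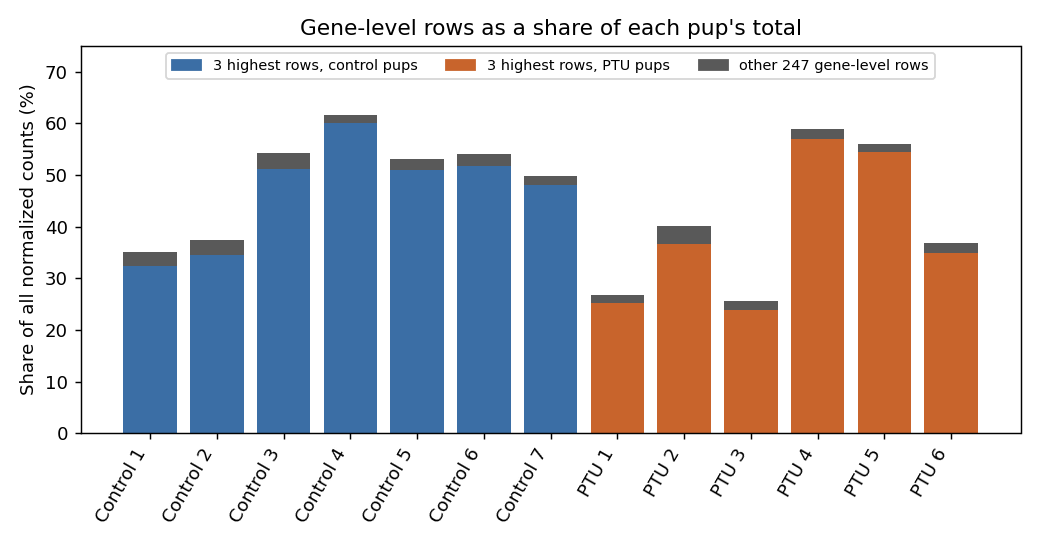
Stacked bars give the share of all normalized counts (%) in each of the 13 pups held by the 3 highest gene-level rows (blue in control, orange in PTU exposed pups) and by the other 247 gene-level rows (dark grey). The coloured part runs from 32.4 to 60.1% in control and from 23.9 to 57.0% in PTU exposed pups, and the grey part stays between 1.47 and 3.32%.

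The 3 highest rows alone made up 47.0% ± 9.98 of the total in control and 38.7% ± 14.1 in PTU exposed pups (SD, n = 7 and 6, exact permutation test, two-sided, p = 0.235). In a total without them, the other gene-level rows held 4.40% ± 0.971 in control and 3.50% ± 1.30 in PTU exposed pups (SD, n = 7 and 6, exact permutation test, p = 0.178). The row ENSRNOG00000068405 had a lowest, median and highest normalized count of 2604810, 7819430 and 11609700 in control pups and of 1637120, 3873430 and 8191220 in PTU exposed pups. Control pups 1 and 2 lay with the lower PTU exposed pups, and PTU exposed pups 4 and 5 lay with the higher control pups. Its log2 fold change was -0.66 (SE 0.67, limma, adjusted p = 0.647). The row ENSRNOG00000065988 was steadier in control pups, at 3006940, 4243780 and 5707990, and spread wider in PTU exposed pups, at 1595850, 3259060 and 8201530. Its group means of 4351550 ± 842849 and 4258590 ± 2511470 (SD, n = 7 and 6) differed by far less than either spread.

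The rows ENSRNOG00000068405 and ENSRNOG00000064743 agreed within 0.1% in 8 of 13 pups, and their ratio reached 1.12 in the others. The unnamed rows ENSRNOG00000065674 and ENSRNOG00000062337 agreed within 0.1% in all 13 pups, and so did the 5_8S_rRNA rows ENSRNOG00000069960 and ENSRNOG00000067717. In all, 4 of 240 tested gene-level rows (1.67%) had an equal row in every pup, against 7 of 14366 transcript-level rows (0.0487%). The expectation-maximization counting used by the authors divides reads that match several places. Whether equal rows share reads was not tested, and each pair is described here once. The unnamed pair also ranged widely. In control pups it stood at a lowest, median and highest count of 192, 20719.5 and 25386.5, and in PTU exposed pups at 112, 11629 and 52046. Control pup 2 and PTU exposed pups 1 and 4 were under 1000, whereas PTU exposed pups 5 and 6 were the highest, and the log2 fold change of -0.46 had an SE of 1.36 (limma adjusted p = 0.896). Without PTU exposed pup 1 it was 0.63.

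The study compared PTU exposed with control pups to ask which RNAs of the VZ depend on thyroid hormone. With limma, 0 of 240 gene-level rows passed an adjusted p of 0.05, where 0.0% of all 14606 tested rows did. By DESeq2, the paper reported differentially expressed genes in both directions in the same pups at that threshold. The 0 thus belongs to the limma fit and not to the paper's comparison. At an unadjusted p under 0.05, 9 gene-level rows (3.75%) were higher in PTU exposed pups, against 8.11% of all rows, and 26 (10.8%) were lower, against 8.2% of all rows. Without PTU exposed pup 2 there were 19 higher (7.92%) and 35 lower (14.6%) gene-level rows, against 10.3 and 10.2% of all rows. Without PTU exposed pup 3 there were 11 and 16 (4.58 and 6.67%), against 7.04 and 7.11% of all rows, and without control pup 3 there were 10 and 17 (4.17 and 7.08%), against 6.4 and 6.24%. With an equal total over all rows set for each pup, the median of all rows moved by 0.20 on the log2 scale and 24 of 240 gene-level rows were higher and 10 (4.17%) lower, against 10.8 and 0.554% of all rows. With an equal total over the transcript-level rows alone, 7 (2.92%) were higher and 29 (12.1%) lower, against 7.54 and 8.54% of all rows. No gene-level row had groups that did not overlap, against 0.335% of all rows in the higher and 0.26% in the lower direction. Large differences were more frequent than in the table at large, as 65 gene-level rows (27.1%) differed by more than 0.5 on the log2 scale, against 10.9% of all rows. The median log2 fold change was -0.02 for the 240 gene-level rows and 0.00 for all rows, but it was not the same for each class. The SRP, RNase P and MRP, snRNA, scaRNA, snoRNA and 5_8S_rRNA rows, called structured RNA rows from here on, had a median of -0.69, with 36 of 38 tested rows lower (the equal 5_8S_rRNA pair counted as 2), and with an equal total over all rows it was -0.51, with 33 lower. The other 202 rows had a median of 0.04, with 91 lower and 111 higher.

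**Figure D2:**
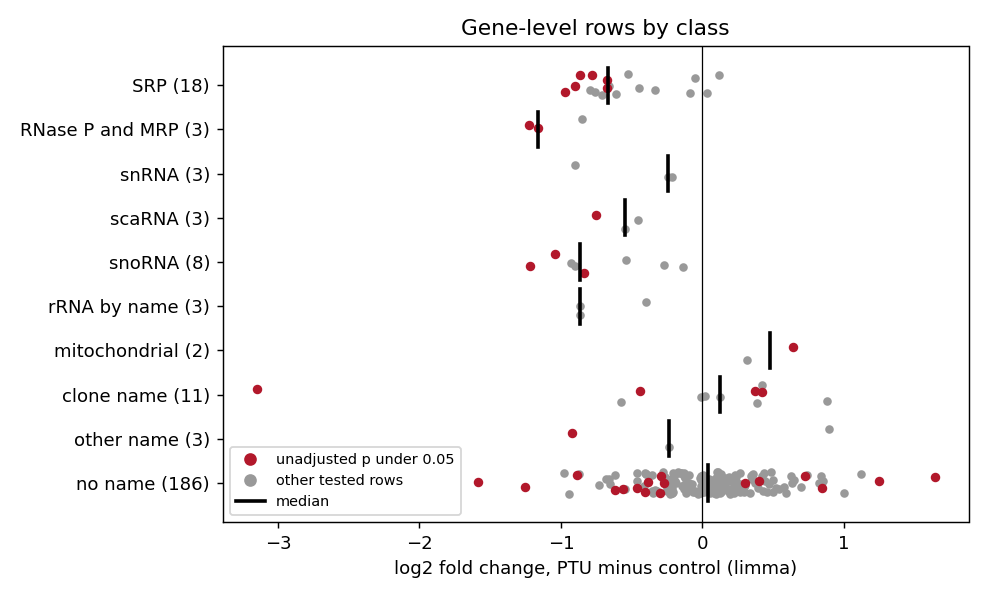
Each point is a tested gene-level row, placed by its log2 fold change (PTU minus control, limma) in the line of its class, with the number of rows in brackets, a black bar at the class median and red points for an unadjusted p under 0.05. Points of the SRP, RNase P and MRP, scaRNA, snoRNA and rRNA lines lie mostly left of 0, those without a name lie on both sides of 0 around a median of 0.04, and no point passed an adjusted p of 0.05.

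The SRP rows were the most numerous named class and held 1.24% ± 0.401 of the total in control and 0.903% ± 0.471 in PTU exposed pups (SD, n = 7 and 6). The difference in share did not pass the test (exact permutation test, two-sided, p = 0.185, adjusted over 10 classes 0.346), nor did the log2 difference in summed counts of -0.71 (exact permutation p = 0.0606, adjusted 0.202). The latter was -0.52 without PTU exposed pup 1, -0.58 without pup 3 and -0.31 without both (exact permutation p = 0.135, 0.129 and 0.327), and -0.93 without pup 2 (exact permutation p = 0.0114). *Rn7sl1* (ENSRNOG00000065968), the SRP RNA gene itself, had a lowest, median and highest count of 101529, 169638 and 276097 in control and of 51331, 110948 and 228325 in PTU exposed pups. PTU exposed pup 2 was the second highest of all 13 pups, PTU exposed pups 1 and 3 were the lowest, and the other 3 PTU exposed pups lay between the lowest and the median control pup. Its log2 fold change was -0.68 (SE 0.30, limma adjusted p = 0.278, exact permutation p = 0.0769). The row ENSRNOG00000067948, named Metazoa_SRP as are the remaining SRP rows, followed *Rn7sl1* closely, at 1.00 to 1.17 times its count, with the larger ratios of 1.17 in control pup 4 and 1.16 in PTU exposed pup 1. A further pair of Metazoa_SRP rows averaged over 10000. In ENSRNOG00000055825 control pups reached 106059 from 20912.5, and PTU exposed pups ran from 10913 to 34201. In ENSRNOG00000052862 the highest pup was PTU exposed pup 2 at 67602, above the highest control pup at 59973, whereas the other 5 PTU exposed pups lay at or below 24857. Of 18 tested SRP rows, 16 were lower in PTU exposed pups. Of those, 6 had an unadjusted p under 0.05, where 8.2% of all tested rows were lower at that p. Their log2 fold changes ran from -0.97 to 0.12, and adjusted p-values from 0.223 to 0.977. Below 10000 counts, the lower values were those of ENSRNOG00000063046 (-0.97), ENSRNOG00000053902 (-0.90), ENSRNOG00000061397 (-0.80), ENSRNOG00000060374 (-0.76), ENSRNOG00000054045 (-0.71) and ENSRNOG00000051865 (-0.66). ENSRNOG00000059449 (-0.61), ENSRNOG00000060522 (-0.52), ENSRNOG00000048993 (-0.45) and ENSRNOG00000061297 (-0.34) came next, and ENSRNOG00000058179 (-0.091) and ENSRNOG00000055749 (-0.052) were near 0. The 2 that were higher, ENSRNOG00000060012 (0.12) and ENSRNOG00000052180 (0.03), averaged 72.7 and 31.0 counts. One SRP row, ENSRNOG00000054307, averaged 6.17 and was not tested. These rows share a name and may share reads, and their sequences were not compared. Counts and medians over them, here and among the structured RNA rows, take each row once, and the rows may not be independent of each other.

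The RNase P and MRP rows had a median log2 fold change of -1.16, the lowest of the 10 classes, and none of them was called. *Rpph1* (ENSRNOG00000054493) is the name of the RNA subunit of RNase P, but the RefSeq gene table used here (assembly GRCr8) lists Rmrp as another name of *Rpph1* and calls it an RNase MRP RNA, so this row cannot be assigned to 1 enzyme by its name. *Rpph1* had a lowest, median and highest count of 37292, 74014 and 209036 in control and of 14288, 33198 and 81578.5 in PTU exposed pups. Control pup 3 stood at more than any other pup, and PTU exposed pup 2 was the only one of its group above the control median. PTU minus control, this gave -1.22 on the log2 scale (SE 0.41, limma adjusted p = 0.174, exact permutation p = 0.0309). The row RNase_MRP (ENSRNOG00000057527) had counts of 15489, 23464 and 46881 in control and of 5840.4, 11420.2 and 30135 in PTU exposed pups. PTU exposed pups 1, 3, 4, 5 and 6 were all below the lowest control pup, and PTU exposed pup 2 was above 5 of the 7 control pups. Its log2 fold change was -1.16 (SE 0.33, limma adjusted p = 0.146, exact permutation p = 0.0181). The third row, RNaseP_nuc (ENSRNOG00000053929), was low, at 50.6 ± 26.8 in control and 30.3 ± 16.8 in PTU exposed pups (SD, n = 7 and 6), with a log2 fold change of -0.85 and a limma adjusted p of 0.377. As a share of the total, the class stood at 0.293% ± 0.154 in control and 0.153% ± 0.108 in PTU exposed pups (SD, n = 7 and 6, exact permutation test, p = 0.0793, adjusted over 10 classes 0.264). The log2 difference in summed counts of -1.23 (exact permutation p = 0.0245, adjusted over 10 classes 0.122) was -1.02 without PTU exposed pup 1, -1.04 without pup 3 and -0.74 without both (exact permutation p = 0.0568, 0.0556 and 0.148), and -1.51 without pup 2 (exact permutation p = 0.00379).

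**Figure D3:**
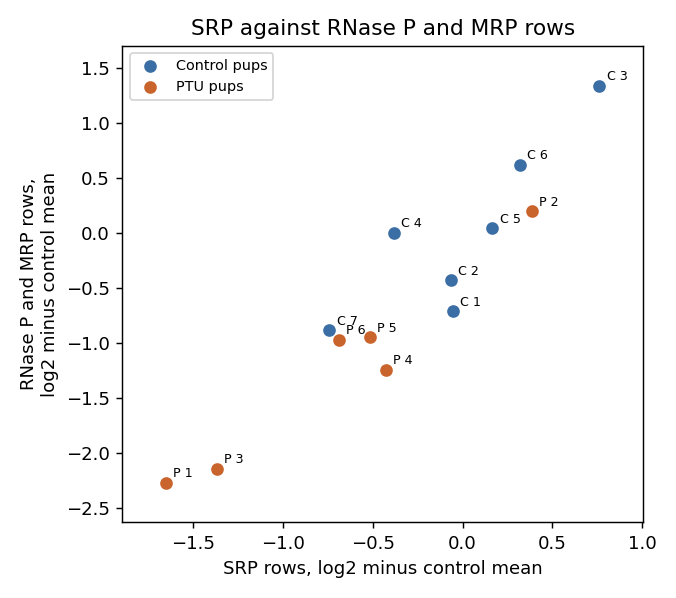
Each point is a pup, with the log2 summed count of the SRP rows minus the control mean on the horizontal axis and that of the RNase P and MRP rows on the vertical axis (blue, control; orange, PTU exposed). The points rise together from PTU exposed pups 1 and 3 at the lower left (-1.65 and -2.27, and -1.37 and -2.14) to control pup 3 at the upper right (0.76 and 1.34), with PTU exposed pup 2 among the control pups.

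The scaRNA rows were measured at intermediate counts. *Scarna2* ran from 1249 to 4259 in control and from 1066 to 2582 in PTU exposed pups, *Scarna10* from 1045 to 4090.1 and from 635 to 3316, and *Scarna6* from 359 to 1038 and from 241 to 671. The groups overlapped in each, and the 3 highest pups of each row were control pups 3, 5 and 6. The log2 fold changes were -0.46, -0.75 and -0.55 (limma adjusted p = 0.448, 0.273 and 0.309). All 8 tested snoRNA rows, which are copies or relatives of U3, SNORA73, *Snord17* and SNORD15, were lower in PTU exposed pups. Their log2 fold changes ran from -1.22 to -0.14. An unadjusted p under 0.05 was found for 3 of them, where 8.2% of all tested rows were lower at that p. *Snord17*, a box C/D guide picked here after its values were seen, ran from 185 to 532 in control and from 56.1 to 505 in PTU exposed pups, where PTU exposed pup 2 was the second highest of the 13. The 3 snRNA rows, U1 and 2 rows of U2, averaged 11.3 to 23.7 counts, and 1 control pup was at 0 in one of them. Their log2 fold changes of -0.90, -0.25 and -0.22 had limma adjusted p-values of 0.532 to 0.904. The most abundant 5_8S_rRNA row, ENSRNOG00000070263, had 2249 ± 526 counts in control and 2072 ± 1229 in PTU exposed pups (SD, n = 7 and 6), and PTU exposed pups 1 and 3 were the lowest at 642 and 601. This row is also outside the rule for named rows. The log2 differences in summed counts were -0.59 for the scaRNA, -0.70 for the snoRNA, -0.73 for the snRNA and -0.52 for the 5_8S_rRNA rows (exact permutation p = 0.115, 0.0921, 0.255 and 0.359, adjusted over 10 classes 0.230 to 0.399). Without PTU exposed pups 1 and 3 they were -0.31, -0.21, 0.078 and 0.25 (exact permutation p = 0.409, 0.506, 0.882 and 0.230). Without PTU exposed pup 2 they were -0.77, -0.94, -1.03 and -0.71 (exact permutation p = 0.0543, 0.0164, 0.134 and 0.216).

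The differences in these classes moved together within a pup. Relative to the control mean of each row, the median of the 38 structured RNA rows was -1.64 on the log2 scale in PTU exposed pup 1 and -1.58 in PTU exposed pup 3, and in each of these pups all 38 rows were below the control mean. The other PTU exposed pups had medians of 0.44 (pup 2), -0.11 (pup 4), -0.20 (pup 5) and -0.42 (pup 6). The control pups ran from -0.66 (pup 7) to 0.76 (pup 3). PTU exposed pup 1 held the lowest value in 22 rows and PTU exposed pup 3 in 12, and control pup 3 held the highest value in 21. Without PTU exposed pup 1 the median log2 fold change of the 38 rows was -0.45, and without PTU exposed pup 3 it was -0.43. In each case 5 rows were lower at an unadjusted p under 0.05, in place of 12. Of all tested rows, 7.67 and 7.11% were lower at that p in these fits, in place of 8.2%. Without both of these PTU exposed pups the median was -0.14, with 22 of 38 rows lower and 1 such row, against 6.78% of all rows. Without control pup 3 the median was -0.56, also with 5 such rows, against 6.24% of all rows. Without control pup 7 it was -0.81, with 19, against 7.96%. The fit with a replicate block, which leaves out the same control pup, gave -0.81 and 19 as well, against 10.2%. An equal total over all rows gave 6 such rows, against 0.554%. Without PTU exposed pup 2 the median was -0.94, with 17 such rows, against 10.2%. In that fit 4 gene-level rows passed an adjusted p of 0.05, among 179 rows (1.23%) of the whole table. These were RNase_MRP (-1.45, adjusted p = 0.0324), Metazoa_SRP ENSRNOG00000052862 (-1.08, 0.042), SNORA73 ENSRNOG00000052439 (-1.67, 0.0389) and the unnamed ENSRNOG00000066286 (-0.53, 0.0391). Of the 13 pups left out in turn, PTU exposed pup 2 was the only one whose removal let a gene-level row pass.

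**Figure D4:**
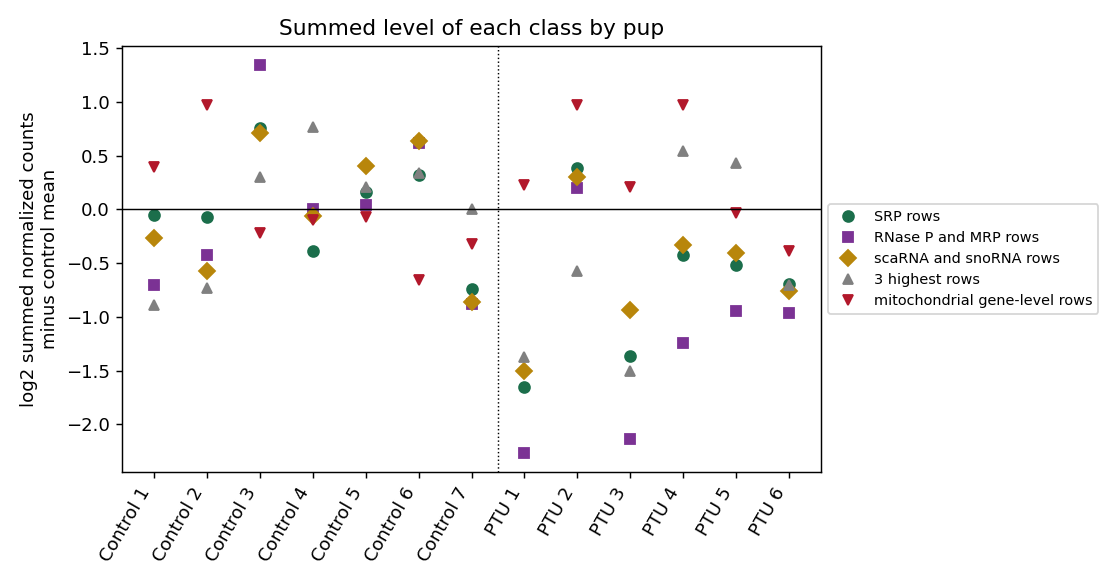
The log2 summed normalized count of 5 groups of gene-level rows minus the control mean is plotted for each of the 13 pups, with a dotted line between control and PTU exposed pups. The SRP, RNase P and MRP, and scaRNA and snoRNA symbols are high or low in largely the same pups and lowest in PTU exposed pups 1 and 3, where the mitochondrial symbols are above 0.

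No marker row of any cell type list was called, and neither was any other of the 14606 tested rows. At an unadjusted p under 0.05, 8.2% of all tested rows were lower in PTU exposed pups and 8.11% higher. All 6 choroid plexus markers were lower in PTU exposed pups (median log2 fold change -0.63, 3 at an unadjusted p under 0.05 and 0 called), with a summed level of 47569 to 134782 in control and 22113 to 94049 in PTU exposed pups. All 8 markers of radial glia, the progenitors of the VZ itself, were lower as well (median -0.33, 5 at an unadjusted p under 0.05), and all 6 neuronal markers were higher (median 0.39, 3 at an unadjusted p under 0.05), with a summed level of 29389 to 45525 in control and 40028.0 to 74143 in PTU exposed pups. Of the other lists, 3 endothelial markers had a median of 0.11, 5 microglial markers 0.06, 4 oligodendrocyte lineage markers 0.18 and the 1 measured erythrocyte marker -0.47, and 0 rows were called. The study describes the capture as made without choroid plexus cells. The part of these cell types in the levels of the structured RNA rows was not tested.

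Transcripts of proteins that bind these or related small RNAs had list medians from -0.19 to 0.17. The 6 measured SRP protein transcripts had a median log2 fold change of 0.06, with 3 higher and 3 lower, where the SRP rows had -0.67. *Srp9*, a subunit that binds the Alu domain of the SRP RNA, was at 502 ± 94.7 in control and 670 ± 84.2 in PTU exposed pups (SD, n = 7 and 6, log2 fold change 0.43, limma adjusted p = 0.166). Of 10 transcripts for RNase P and MRP proteins, 8 were higher (median 0.17), and the subunits *Rpp25* (0.56) and *Pop7* (0.57) had the largest values, with limma adjusted p-values of 0.174 and 0.238. The median was -0.00 for 6 partners of 7SK RNA, -0.19 for 2 Ro and La proteins, 0.06 for 5 rows of box C/D snoRNP proteins, 0.04 for 5 rows of box H/ACA snoRNP proteins and -0.01 for 7 Sm proteins. In these 7 lists 0 rows were called in either direction, as over all 14606 tested rows. At an unadjusted p under 0.05 there were 5 higher and 2 lower rows, against 8.11 and 8.2% of all tested rows. *Wrap53*, which brings scaRNAs to Cajal bodies, was the lowest of them, at 352 ± 50.5 in control and 243 ± 69.5 in PTU exposed pups (SD, n = 7 and 6, log2 fold change -0.57, limma adjusted p = 0.152).

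The 2 rows named after a mitochondrial genome sequence had positive log2 fold changes, and neither was called. Their log2 difference in summed counts of 0.33 (exact permutation p = 0.283, adjusted over 10 classes 0.353) was 0.20 without PTU exposed pup 2 and also without pup 4 (exact permutation p = 0.523 and 0.518), and 0.38 without pups 1 and 3 (exact permutation p = 0.315). AY172581.24 (ENSRNOG00000043866), the sixth most abundant gene-level row, had a lowest, median and highest count of 49272, 71254 and 155541 in control and of 57729, 89825 and 155667 in PTU exposed pups. The groups covered nearly the same range, and the log2 fold change was 0.32 (SE 0.26, limma adjusted p = 0.567). AY172581.9 (ENSRNOG00000030478) had counts of 1863, 2646 and 3723 in control and of 2505, 3936 and 8137 in PTU exposed pups. All but 1 of the PTU exposed pups were above 6 of the 7 control pups, and PTU exposed pup 4 stood at more than any other pup. The log2 fold change was 0.64 (SE 0.21, limma adjusted p = 0.171, exact permutation p = 0.0163). The 13 protein-coding transcripts of the mitochondrial genome, which are transcript-level rows, were all higher in PTU exposed pups, with a median log2 fold change of 0.53. Of these, 10 had an unadjusted p under 0.05, against 8.11% of all tested rows, and 0 were called, as over the whole table. Without PTU exposed pup 2, 2 of them were called, among 179 called rows (1.23%) of the whole table. *Mt-co2*, a subunit of cytochrome c oxidase, was at 331 ± 74.5 in control and 521 ± 113 in PTU exposed pups (SD, n = 7 and 6, log2 fold change 0.66, limma adjusted p = 0.133).

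The rows without a name were balanced between the directions, with 85 of 186 tested rows lower after PTU exposure and 101 higher. At an unadjusted p under 0.05, 11 of the 186 were lower and 6 higher, against 8.2 and 8.11% of all tested rows. The smallest p-value among all gene-level rows was that of ENSRNOG00000063824, with a lowest, median and highest count of 832, 999 and 1240.1 in control and of 488, 661 and 908 in PTU exposed pups. Every PTU exposed pup but pup 5 lay below the lowest control pup. The log2 fold change was -0.56 (SE 0.13, limma adjusted p = 0.122, exact permutation p = 0.00117). ENSRNOG00000066286 followed, with 739, 913 and 1093 in control and 553, 663 and 835 in PTU exposed pups, where only PTU exposed pup 2 was above the lowest control pup. This gave a log2 fold change of -0.47 (SE 0.12, limma adjusted p = 0.128, exact permutation p = 0.0035). ENSRNOG00000065005 (-0.62) and ENSRNOG00000068727 (-0.89) were the other unnamed rows among the 6 lowest p-values in this direction, with limma adjusted p-values of 0.141 and 0.136. In contrast to the structured RNA rows, the first pair was steady between control pups, with a coefficient of variation (CV) of 12.6 and 13.9% in that group.

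In the higher direction, ENSRNOG00000063619 had counts of 8.84, 24.0 and 65.9 in control and of 45.2, 65.6 and 208 in PTU exposed pups. Its 2 highest pups were PTU exposed pups 4 and 5, and control pups 4 and 5 lay within the PTU range. The log2 fold change was 1.64 (SE 0.46, limma adjusted p = 0.146, exact permutation p = 0.00991). ENSRNOG00000021110 ran from 21.1 to 225 in control and from 114 to 417 in PTU exposed pups (log2 fold change 1.24, limma adjusted p = 0.175). ENSRNOG00000069313 had a smaller but steadier difference, from 201 to 318 in control and from 287 to 411 in PTU exposed pups (0.40, adjusted p = 0.174). Here control pup 6 alone reached into the PTU range. ENSRNOG00000066426 (0.30, adjusted p = 0.261) ran from 909 to 1335 in control and from 999.7 to 1879 in PTU exposed pups, and ENSRNOG00000064728 (0.72, adjusted p = 0.278) from 21.0 to 118 and from 65.8 to 89.4. The seventh most abundant gene-level row, ENSRNOG00000068307, reached 240748 in PTU exposed pup 4, where the other 12 pups lay between 20375 and 89792. The log2 fold change was -0.13 (SE 0.43, limma adjusted p = 0.91).

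Rows named after a genomic clone held a small and steady share of the total, 0.00792% ± 0.000794 in control and 0.00912% ± 0.00116 in PTU exposed pups (SD, n = 7 and 6, exact permutation test, p = 0.0559, adjusted over 10 classes 0.264). In a total without the 3 highest rows the shares were 0.0152% in control and 0.0153% in PTU exposed pups (exact permutation p = 0.916), and log2 summed counts were -0.0030 apart, PTU minus control (exact permutation p = 0.975). Without PTU exposed pups 1 and 3 the difference in share of 0.00119 percentage points was 0.000659 (exact permutation p = 0.282) and that in log2 summed counts 0.080 (exact permutation p = 0.445). Of 11 tested, 4 were lower and 7 higher after PTU exposure. AC129138.1 (ENSRNOG00000052563), picked after its values were seen, was near 0 in PTU exposed pups 1 (0.0103) and 3 (0.0001), ran from 28.7 to 159 in the other 4 PTU exposed pups and from 34.9 to 314 in control pups. Its log2 fold change of -3.15 (limma adjusted p = 0.174) rests on those near 0 values and on the pseudocount of 1, and without PTU exposed pups 1 and 3 it was -1.18 (limma adjusted p = 0.390). The 4 rows with another name had a log2 difference in summed counts of -0.70 (exact permutation p = 0.0181, adjusted over 10 classes 0.122), and of -0.52 without PTU exposed pups 1 and 3 (exact permutation p = 0.0909). Among them, Gm22009 (ENSRNOG00000053927) had a lowest, median and highest count of 333, 458 and 998 in control and of 201, 267 and 419.7 in PTU exposed pups. The PTU exposed pups other than pup 2 lay below the lowest control pup, pup 2 lay above 3 of the control pups, and the log2 fold change was -0.92 (SE 0.25, limma adjusted p = 0.136, exact permutation p = 0.0105).

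From 100 to 10000 counts the structured RNA rows had a larger median spread between pups than the unnamed rows. Over the tested rows, the median CV between control pups was 42.7% for the structured RNA rows, 27.0% for the rows without a name and 17.4% for the transcript-level rows, and in PTU exposed pups it was 59.3, 30.5 and 19.7%. Rows were also compared within ranges of the mean count. From 10 to 100 counts, the median CV was 50.9% in control and 62.3% in PTU exposed pups for the structured RNA rows and 48.3 and 51.7% for the unnamed rows. From 100 to 1000 counts, the structured RNA rows had a median CV of 41.8% in control and 61.7% in PTU exposed pups. In that range the unnamed rows, at 18.9 and 21.1%, were near the transcript-level rows, at 18.2 and 20.1%. From 1000 to 10000 counts the unnamed rows (10.8 and 11.8%) were again near the transcript-level rows (11.4 and 13.2%). At 10000 counts and over, the 14 gene-level rows had a median CV of 42.9% in control and 61.7% in PTU exposed pups, where the 207 transcript-level rows had 11.7 and 13.5%. Of these 14, the 6 structured RNA rows stood at 37.9 and 60.6% and the 7 unnamed rows at 45.9 and 61.8%. Without PTU exposed pup 2, the value in PTU exposed pups was 37.3% for those 6 structured RNA rows, 66.8% for the 7 unnamed rows and 43.5% for all 14. Among rows averaging at least 100 counts, those with the largest CV between control pups were ENSRNOG00000066136, the equal pair ENSRNOG00000065674 and ENSRNOG00000062337, *Rpph1* and Metazoa_SRP ENSRNOG00000055825. ENSRNOG00000066136 ran from 9.21 to 368 in control and from 59.5 to 389 in PTU exposed pups.

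**Figure D5:**
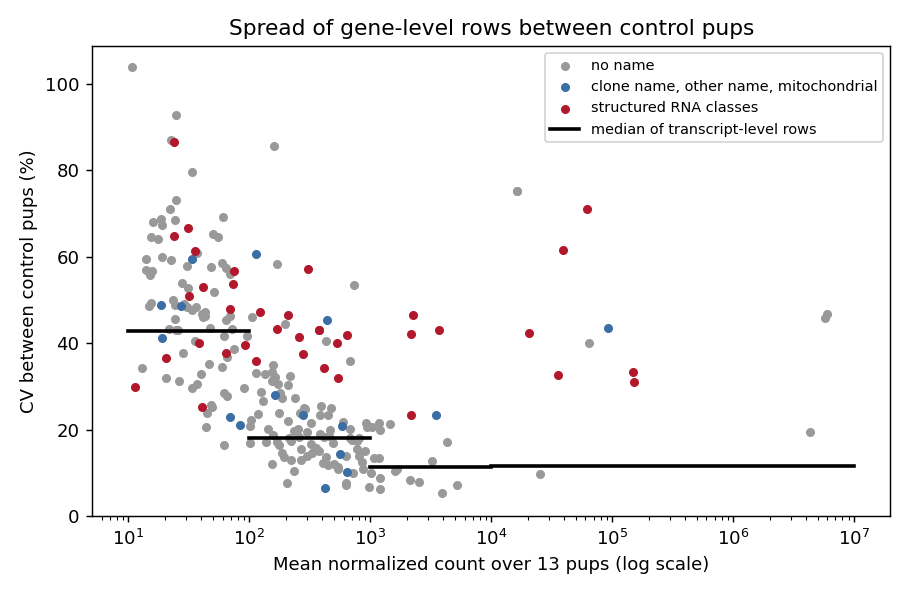
Each point is a tested gene-level row, with its mean normalized count over 13 pups on a logarithmic horizontal axis and its CV between the 7 control pups (%) on the vertical axis, and black lines mark the median CV of transcript-level rows in 4 ranges of the mean. Structured RNA rows (red) lie mostly above the black lines in each range (medians of 50.9, 41.8, 42.5 and 37.9%), whereas grey points without a name lie close to the lines from 100 to 10000 counts.

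The relations between classes were examined across the 13 pups on log2 summed counts centred within groups, in 6 relations with Benjamini-Hochberg adjustment. The SRP rows went with the RNase P and MRP rows (Pearson r = 0.92, permutation p = 0.00011, adjusted p = 0.00033, Spearman rho = 0.90, permutation p = 0.00026) and with the scaRNA and snoRNA rows (r = 0.91, permutation p = 4e-05, adjusted p = 0.00024, rho = 0.94, permutation p = 3e-05). Without the 2 pups farthest from the median, PTU exposed pups 1 and 2, r was 0.86 and 0.85. Classes of 1 pup share its library and its size factor, and with levels taken as shares of the transcript-level total, r was 0.91 in both relations. The SRP rows and the 3 highest rows had r = 0.42 (permutation p = 0.215, adjusted 0.322, rho = 0.51, permutation p = 0.109, r = 0.43 without 2 pups). The SRP rows and the 2 mitochondrial rows had r = 0.22 (permutation p = 0.502, adjusted 0.502, rho = 0.02, permutation p = 0.952), and r = -0.02 without the same pups. The 2 mitochondrial rows and the mitochondrial protein transcripts had r = 0.21 (permutation p = 0.492, adjusted 0.502, rho = 0.03, permutation p = 0.938), and r = 0.55 without control pup 2 and PTU exposed pup 2. The 3 highest rows went with the estimated number of counted reads (r = 0.80, permutation p = 0.001, adjusted p = 0.002, rho = 0.79, permutation p = 0.00168, r = 0.79 without PTU exposed pups 3 and 4), but their own reads are part of that number.

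Rows that followed the SRP rows were counted over the whole table, as a description with the same centring and 13 pups. A Pearson r over 0.8 with the summed SRP rows was found for 6 of the 20 other structured RNA rows, for 3 of 202 other gene-level rows (1.49%) and for 28 of 14366 transcript-level rows (0.195%). The 3 gene-level rows outside the structured classes were the unnamed ENSRNOG00000069135 (r = 0.89), AC129138.1 (r = 0.86) and AABR07065438.2 (r = 0.83), which were named for this likeness after it was seen. ENSRNOG00000069135 ran from 383 to 1779.6 in control and from 99.5 to 1210.0 in PTU exposed pups, with PTU exposed pups 1 and 3 the lowest of the 13 (log2 fold change -0.87, limma adjusted p = 0.371). AABR07065438.2 was likewise lowest in PTU exposed pups 1 and 3, at 319 and 343, where the other 11 pups lay between 451 and 907.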

How the data were processed

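Total RNA libraries were made with a stranded kit that includes depletion of ribosomal RNA. Per the methods and the submitters' processing notes, the authors trimmed the reads with Trimmomatic, aligned them to mRatBN7.2 (rn7) with STAR 2.7.8a and estimated counts with the expectation-maximization model of Partek, followed by median ratio normalization. What the authors deposited is thus a signal scaled between pups, with no value below 0, and not a raw count. It is given here as a normalized count. Between 89.9 and 91.6% of values from 20 to 150 lay within 0.1 read of a whole multiple of a pup's step, and 76.0 to 86.7% of those in gene-level rows, which is too few to recover reads, so no count model was used. A RefSeq annotation is named in the methods, but the rows carry Ensembl identifiers. The authors' own comparison by DESeq2 (p-value, FDR, ratio, log2 ratio, fold change and group means) was deposited in the same table and was not used. The number of per-sample columns left out was 0.

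The 14606 of 14716 rows that averaged at least 10 across pups were compared on the log2(normalized count + 1) scale with limma 3.58.1 in R 4.3.3 (group only, empirical Bayes with a variance trend, Benjamini-Hochberg over all tested rows, threshold 0.05). Fold changes on this scale understate the change of low rows. For shares, class sums and single rows, a two-sided exact permutation test was made over every regrouping of the pups, whose smallest p is 0.000583, and correlations used 100000 permutations within groups. The script was tested on simulated data. Other steps ran in Python 3.11.15 with scipy 1.17.1, pandas 2.3.3, matplotlib 3.10.9 and numpy 2.4.6. Replicate numbers come from the labels and belong to different litters.

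The gene-level rows, the classes and the gene lists were chosen with earlier results of these data known. Classes follow the gene name alone, and 3 rows named U3 were placed with the snoRNAs, although the planned wording of the snRNA class covered them. By the naming rule, the text names the 10 with the highest mean, every row of the SRP, RNase P and MRP, snRNA, scaRNA and mitochondrial classes of fewer than 20 rows, the 6 with the smallest p in each direction, the 5 with the largest CV in control pups among those averaging at least 100, and any row that was called. Others were picked after their values were seen. Of 33 names on gene-level rows, 7 matched a symbol of the RefSeq table (GRCr8), which was used for names only, and no sequence of these rows was read.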

Additional observations from a re-analysis of the deposited data

Results flagged for a closer look

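Of 116 groups of pups examined for a value standing apart from the rest by its gap to the nearest pup, 16 held one. The groups share pups and rows and their values were not log transformed, so the number cannot be set against a rate by chance. In PTU exposed pup 2 the shares of the total were high for the SRP rows (1.83%, next highest 0.906%), the RNase P and MRP rows (0.363%, next 0.168%), the scaRNA rows (0.0214%, next 0.0123%) and the snoRNA rows (0.00399%, next 0.00186%). The same pup stood above its group in *Rpph1* (81578.5 normalized counts), RNase_MRP (30135), *Scarna10* (3316) and the Metazoa_SRP rows ENSRNOG00000052862 (67602), ENSRNOG00000059449 (1205) and ENSRNOG00000061397 (125). Control pup 3 stood above its group in the share of the snRNA rows (0.000382%), in *Rpph1* (209036) and in Metazoa_SRP ENSRNOG00000054045 (575). PTU exposed pup 4 stood apart in the unnamed row ENSRNOG00000068307 (240748, next highest 56539) and in AY172581.9 (8137, next 4006), and PTU exposed pup 1 in the unnamed row ENSRNOG00000066426 (1879, next 1305). All 16 values were the highest of their group.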

How the results depend on the processing

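No gene-level row was called under the other pseudocounts, filters, scalings, weights or spread models. Over the whole table these fits called 0 rows, except for 40 of 14606 with array weights. Removal of single pups gave 0 to 4 called gene-level rows, the 4 without PTU exposed pup 2, against 0.0 to 1.23% of all rows. Removing a pup gave 6 to 19 higher and 16 to 35 lower gene-level rows at an unadjusted p under 0.05 (against 6.12 to 10.3 and 6.14 to 10.2% of all rows), and 0 to 2 called mitochondrial protein transcripts. The higher rows at that p numbered 15 with no variance trend (against 7.48% of all rows), and an equal total over all rows gave 24 higher and 10 lower (against 10.8 and 0.554% of all rows). Same-numbered pups came from different litters, and their deviations correlated at -0.07 to 0.20, over 0.1 for 4 of 6 numbers, while 4 of 13 pups correlated best with their own number. A fit with the number as a replicate block, which leaves out control pup 7, gave 17 higher and 37 lower rows, against 10.1 and 10.2% of all rows, 0 called gene-level rows and 18 called rows in all, and changed the share of the total to -8.49 percentage points (exact p = 0.219). The share without a name differed by 0.132 points in a total without the 3 highest rows, and the clone name class by -0.0030 as log2 summed counts and -0.011 as log2 share of the transcript-level total, an alternative chosen after seeing the data, as was moving the U3 rows to the snRNAs. The 5_8S_rRNA share differed by -0.00198 to 0.000173 points without single pups. Log2 fold changes turned to 0.12 for ENSRNOG00000065988 (quantile normalization), 0.20 for both rows of the pair ENSRNOG00000065674 and ENSRNOG00000062337 (array weights), -0.053 for ENSRNOG00000052180 (replicate block), 0.17 for U2 ENSRNOG00000068389 (pseudocount of 0.1), and, with an equal total over all rows, 0.074 for ENSRNOG00000068307, 0.10 for ENSRNOG00000058179 and 0.14 for ENSRNOG00000055749. Without single pups they ran from -0.45 to 0.026 for ENSRNOG00000065988, -0.58 to 0.13 for ENSRNOG00000068307, -1.32 to 0.63 for that pair, -0.26 to 0.11 for ENSRNOG00000058179, -0.090 to 0.43 for ENSRNOG00000060012, -0.19 to 0.19 for ENSRNOG00000055749, -0.13 to 0.26 for ENSRNOG00000052180, -0.94 to 0.11 for U2 ENSRNOG00000068389 and -0.43 to 0.13 for U1 ENSRNOG00000063243. Without PTU exposed pups 1 and 3 together, also chosen after seeing the data, 0 rows were called and 8 higher and 15 lower gene-level rows had an unadjusted p under 0.05 (against 5.65 and 6.78% of all rows), the snRNA share differed by 1.11e-05 and the 5_8S_rRNA share by 0.00162 points, and log2 fold changes turned to 0.14 (ENSRNOG00000065988), 0.28 (ENSRNOG00000068307), 0.80 (both rows of that pair), 0.092 (ENSRNOG00000048993), 0.20 (ENSRNOG00000061297), 0.38 (ENSRNOG00000058179), 0.33 (ENSRNOG00000055749), 0.22 (ENSRNOG00000051865), 0.53 (U1), 0.0046 (U2 ENSRNOG00000071124) and 0.27 (U2 ENSRNOG00000068389). Without the 2 farthest pups, r was -0.017 for SRP with mitochondrial rows and 0.55 for mitochondrial rows with mitochondrial protein transcripts. The cause of these shifts was not tested. How the depth limits detection at different levels was not tested.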
